A study of Homo sapiens with 6 samples.

Results

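The cell-surface heparan sulfate proteoglycans of U87 glioblastoma cells were described here at the mRNA level. The family comprised 10 genes, the 4 syndecans SDC1 to SDC4 and the 6 glypicans GPC1 to GPC6, out of 60671 genes in the expression table. The members were chosen by gene name. Of the 10, 9 carried their symbol in the table, and GPC2, whose row had no symbol, was found by its Ensembl identifier ENSG00000213420. U87 is an established line from a human grade IV glioblastoma. The control group was U87 cells kept for 48 h in serum-free medium with 0.1% DMSO (3 libraries), and the rutaecarpine group was the same line kept for 48 h in the same medium and DMSO with 100 µM rutaecarpine (3 libraries). Rutaecarpine is an alkaloid that was studied as an agonist of the aryl hydrocarbon receptor (AhR), a ligand-activated transcription factor, and the study asked which genes related to cell migration responded to it. The study's statistical methods described n as independent experiments in general, without naming the sequenced libraries, and the labels did not say whether the 3 libraries of a group came from separate cultures. Every p-value below therefore measures the spread between these libraries, which may be technical.

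Syndecans are transmembrane core proteins with a short cytoplasmic tail, and glypicans are held in the outer leaflet of the membrane by a glycosylphosphatidylinositol (GPI) anchor. Both carry heparan sulfate chains that bind fibroblast growth factors, other heparin-binding ligands and matrix proteins, and both can be released from the cell by proteases or lipases. In glioma they are known as co-receptors for growth factors and as adhesion molecules that take part in migration.

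Levels were given as TPM, a transcript abundance scaled for transcript length and for the total of the library, so that genes can be compared with each other. Changes were log2 fold changes of TPM + 1, rutaecarpine over control, from a limma fit across the 14377 genes that reached 1 TPM in at least 3 libraries, and a gene passed when its p-value adjusted over all of these genes (Benjamini-Hochberg) was at most 0.05. A gene that also changed by more than 1 on the log2 scale was called a DEG (differentially expressed gene). For some lists, counts at an unadjusted p under 0.05 are given as well. The share of all tested genes at that cut-off was not counted, so those counts have no background here. TPM keep no sequencing depth, so the depth of the libraries is unknown.

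Before the members, the libraries were checked. CYP1B1, a textbook AhR target, was at 84.67, 82.42 and 42.80 TPM in the control libraries and at 410.60, 335.45 and 422.88 TPM in the rutaecarpine libraries. All 5 AhR targets examined rose, also without control replicate 3. Of these, CYP1A1 (0.00 to 1.18 TPM) and AHRR (0.07 to 5.93 TPM) stayed below 1 TPM in every control. They reached the test only through the rutaecarpine libraries, so a fall could not have been seen for them. Of the 7 tested markers of glioma and mesenchymal cells, 1 rose (OLIG2) and 3 fell (NES, VIM and FN1). Over all tested genes 4.60% passed as higher and 4.68% as lower. OLIG2 was low, at 1.55, 1.48 and 1.73 TPM in the controls and 3.07, 3.70 and 4.11 TPM with rutaecarpine. The mesenchymal marker VIM was abundant (4430.43 TPM or more in every library), whereas the astrocyte marker GFAP was at 3.48 to 5.41 TPM and the neural markers S100B and SOX2 were at 0.25 TPM or less. Of the 11 markers of other cell types, 9 were too low to be tested. The leukocyte marker PTPRC, the endothelial marker CDH5 and the epithelial markers EPCAM and CDH1 stayed below 1 TPM in all 6 libraries, while CD68, a lysosomal glycoprotein, was at 318.56 to 510.62 TPM and fell. Some other markers of this list reached 1 TPM. The endothelial marker PECAM1 was at 0.71, 0.54 and 0.65 TPM in the controls and at 1.29, 0.89 and 1.33 TPM with rutaecarpine. The myelin marker MBP was at 0.11 to 1.61 TPM, and neither could be tested. The neuronal marker SYT1 was at 2.74 to 5.06 TPM and did not pass (limma adjusted p = 0.703). Control replicate 3 stood apart. Its median gene lay at 3.56 on the log2 scale against 3.97 and 3.95 in the other controls, and its expression correlated with theirs at Pearson r = 0.965 across genes (which are not independent replicates), compared with 0.986 between those other controls. In rutaecarpine replicates 1 to 3 the medians were 3.96, 3.81 and 4.00, so replicate 2 was the lowest of its group. These libraries correlated with each other at Pearson r = 0.984 to 0.986. Results are given with and without control replicate 3 where the call of a named gene or the count of a list differed.

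**Figure D1:**
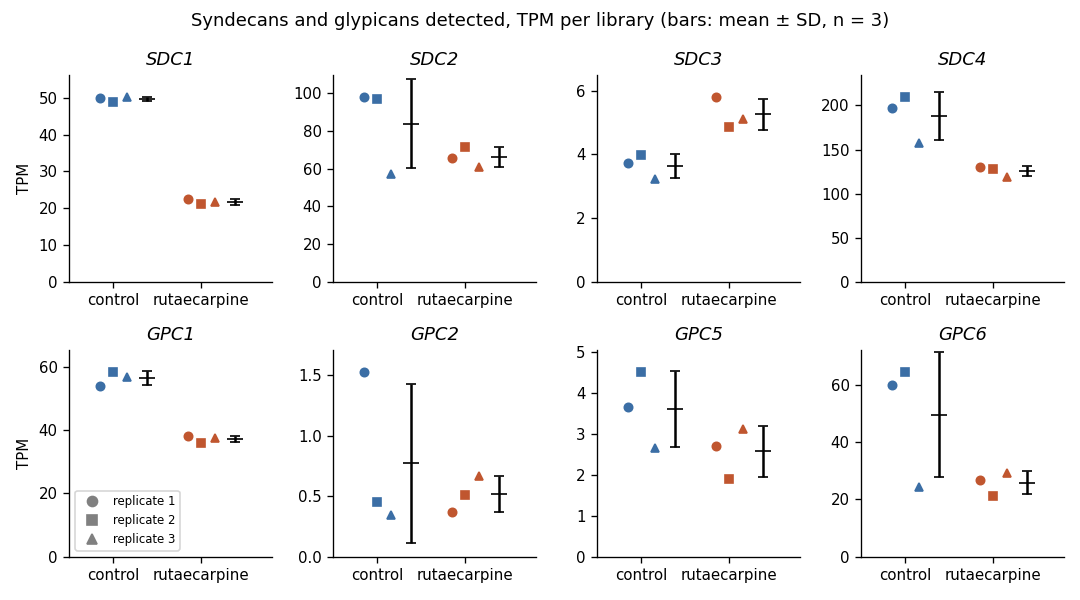
TPM of the 8 members that were detected, in each of the 6 libraries, on linear axes that start at 0; the symbol gives the replicate number and the bars the mean ± SD of 3 libraries. SDC1, SDC4 and GPC1 were lower in every rutaecarpine library than in any control, and for SDC2 and GPC6 control replicate 3 (blue triangle) lay beside the rutaecarpine libraries.

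The members differed widely in level. SDC4 was the most abundant member in both groups, with 188 ± 27.4 TPM (SD, n = 3) in the controls. SDC2 (83.8 ± 23.4), GPC1 (56.5 ± 2.30), SDC1 (49.7 ± 0.662) and GPC6 (49.7 ± 22.0 TPM) followed, and in the controls the ranges of SDC2 and GPC1 overlapped, as did those of GPC6 and SDC1. SDC3 and GPC5, at 3.64 ± 0.383 and 3.61 ± 0.936 TPM, overlapped in the controls, and GPC2 reached 1.53 TPM in 1 control library and 0.34 to 0.67 TPM in the other 5. GPC3 and GPC4, the glypicans of the X chromosome, were listed at 0 in all 6 libraries. With rutaecarpine the order was SDC4 (126 ± 5.54), SDC2 (66.1 ± 5.31), GPC1 (37.3 ± 1.07), GPC6 (25.8 ± 4.09), SDC1 (21.7 ± 0.693), SDC3 (5.25 ± 0.488), GPC5 (2.57 ± 0.616) and GPC2 (0.517 ± 0.150 TPM), in which GPC6 and SDC1 were the only neighbours with overlapping ranges. SDC1 thus stood above GPC6 in 1 of the 3 control libraries (replicate 3) and in none of the rutaecarpine libraries.

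Of the 10 members, 7 could be tested, and each of the 7 was above 1 TPM in all 6 libraries. SDC1, SDC4 and GPC1 fell, and no member rose. These 3 of 7 compare with 4.68% of all tested genes passing as lower and 4.60% passing as higher. By limma without adjustment, 1 member (SDC3) was higher at a p under 0.05. The median log2 fold change of the 7 members was -0.57, compared with 0.08 over all tested genes. SDC1 was the only DEG among the members, and DEGs that fell made up 1.50% of the tested genes. The groups did not overlap for SDC1, SDC3, SDC4 and GPC1, whereas 33.3% of all tested genes had groups that did not overlap in either direction. Because these are bulk samples, less RNA of a gene per cell and fewer cells that express it cannot be told apart.

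Among the syndecans, SDC1 showed the largest change. SDC1 encodes syndecan-1, a co-receptor for growth factors and integrins that is shed from epithelial and tumour cells. The gene (ENSG00000115884) lies on the minus strand at chr2:20200797-20225433 (GRCh38). SDC1 was at 49.83, 48.93 and 50.22 TPM in control replicates 1 to 3 and at 22.40, 21.02 and 21.59 TPM in rutaecarpine replicates 1 to 3. All rutaecarpine libraries were below all controls, and the spread within each group was under 1 TPM (SD). The log2 fold change was -1.16 (95% interval -1.37 to -0.95; limma adjusted p = 0.000755), and the mean fell to 0.436 of the control mean. SDC1 remained a DEG when any 1 of the 6 libraries was left out, with log2 fold changes of -1.18 to -1.14. The study had already singled out SDC1 from these libraries as a migration gene, so its direction here is not independent evidence. Separately, the study measured SDC1 by qPCR and reported the same direction as in its sequencing.

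SDC4 encodes syndecan-4, a component of focal adhesions that binds protein kinase C alpha through its cytoplasmic tail. The gene (ENSG00000124145) is on the minus strand at chr20:45325288-45348424. SDC4 was at 197.44, 209.66 and 157.23 TPM in the controls and at 129.72, 127.85 and 119.33 TPM with rutaecarpine. Control replicate 3 was the lowest control and still above every rutaecarpine library. SDC4 fell by 0.57 on the log2 scale (95% interval -0.85 to -0.29; limma adjusted p = 0.0289), to 0.668 of the control mean. The call held in 1 of the 6 fits that left out 1 library, while the log2 fold change stayed between -0.69 and -0.49. Without control replicate 3 the change was -0.69 with an adjusted p of 0.000800, and without any 1 of the other 5 libraries (control replicates 1 and 2, rutaecarpine replicates 1 to 3) the adjusted p was 0.0940 to 0.130.

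SDC2 encodes syndecan-2, a syndecan of mesenchymal and neural cells, and lies on the plus strand of chromosome 8. SDC2 was at 97.92, 96.72 and 56.87 TPM in the controls and at 65.73, 71.55 and 60.95 TPM with rutaecarpine. Control replicate 3 was below all rutaecarpine libraries, while the other 2 controls were above them. With all libraries SDC2 did not pass, with a log2 fold change of -0.30 (95% interval -0.80 to 0.20; limma adjusted p = 0.432). Without control replicate 3 it was -0.55 (95% interval -0.75 to -0.36; adjusted p = 0.00494).

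SDC3 encodes syndecan-3, the syndecan of the nervous system, and lies on the minus strand at chr1:30869467-30908761. SDC3 was at 3.73, 3.97 and 3.22 TPM in the controls and at 5.80, 4.86 and 5.10 TPM with rutaecarpine, so it was the only tested member whose rutaecarpine libraries were all above the controls. The log2 fold change of 0.43 (95% interval 0.05 to 0.81) did not pass (limma adjusted p = 0.159), nor did it when any library was left out (0.36 to 0.48; adjusted p = 0.150 to 0.418). The ratio of the means was 1.44.

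Among the glypicans, GPC1 was the member with a change that passed. GPC1 encodes glypican-1, a co-receptor for FGF2 that is abundant in glioma cells. The gene (ENSG00000063660) is on the plus strand at chr2:240435671-240468078. GPC1 was at 54.02, 58.55 and 56.96 TPM in the controls and at 38.19, 36.11 and 37.55 TPM with rutaecarpine, with no overlap and a control replicate 3 between the other controls. GPC1 fell by 0.59 on the log2 scale (95% interval -0.79 to -0.38; limma adjusted p = 0.00776), to 0.660 of the control mean. It passed when any 1 library was left out (-0.62 to -0.56; adjusted p = 0.00326 to 0.0489). GPC1 and SDC4 thus changed by nearly the same log2 amount, while their spread in the controls differed (SD of 2.30 and 27.4 TPM).

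GPC6 and GPC5 lie beside each other on chromosome 13, on the plus strand at chr13:93226842-94407401 and chr13:91398607-92873682. GPC6, which encodes a glypican that promotes hedgehog signalling in growing bone, was at 59.88, 64.65 and 24.45 TPM in the controls and at 26.87, 21.30 and 29.28 TPM with rutaecarpine. Control replicate 3 was within the range of the rutaecarpine libraries, and the other 2 controls were above all of them. With all libraries the log2 fold change was -0.81 (95% interval -1.65 to 0.03; limma adjusted p = 0.220), and without control replicate 3 it was -1.25 (95% interval -1.57 to -0.93; adjusted p = 0.00117). A non-coding gene on the opposite strand (ENSG00000278177, 0 to 2.01 TPM) overlaps an exon of GPC6, and the strandedness of the libraries is not given in the sources used here, so reads from the overlap cannot be told apart. GPC5, a glypican of the developing nervous system, was at 3.66, 4.52 and 2.65 TPM in the controls and at 2.71, 1.90 and 3.11 TPM with rutaecarpine. These groups overlapped, and the change of -0.36 (95% interval -0.90 to 0.18) did not pass (limma adjusted p = 0.380). Without control replicate 3 it was -0.52 (adjusted p = 0.133).

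GPC2, a glypican of developing neurons on the minus strand at chr7:100169606-100177372, was at 1.53, 0.45 and 0.34 TPM in the controls and at 0.37, 0.51 and 0.67 TPM with rutaecarpine. It was below the level needed for the test, and its highest value came from control replicate 1. GPC3 (chrX:133535745-133985895) and GPC4 (chrX:133300103-133415490), neighbours on the minus strand, were listed at 0 in every library, so no change could be given.

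**Figure D2:**
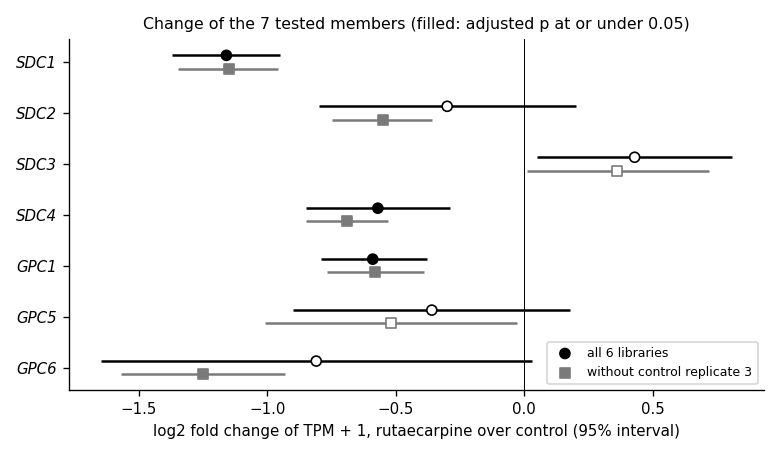
Log2 fold change of TPM + 1 with its 95% interval for the 7 tested members, from all 6 libraries (black circles) and without control replicate 3 (grey squares); filled symbols passed at an adjusted p of at most 0.05. SDC1 and GPC1 kept their values in both fits, and SDC2 and GPC6 passed only in the fit without control replicate 3.

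The place of control replicate 3 differed between members. Without it, 5 of the 7 tested members passed as lower (SDC1, SDC2, SDC4, GPC1 and GPC6), compared with 10.3% of all tested genes, and leaving out any 1 of the other libraries gave 2 (SDC1 and GPC1). Control replicate 3 minus the mean of control replicates 1 and 2, on the log2 scale of TPM + 1, was 0.02 for SDC1 and 0.02 for GPC1, -0.20 for SDC3, -0.37 for SDC4, -0.47 for GPC5, -0.76 for SDC2 and -1.31 for GPC6. The median over all tested genes was -0.24. Over all genes this difference moved with transcript length, taken as the longest protein-coding transcript of a gene in GENCODE release 29. Its median was 0.10 in the 3572 genes with the shortest transcripts (up to 1859 nt) and -0.66 in the 3569 genes with the longest (4840 nt or more). GPC6, with a transcript of 6467 nt, was among the genes most reduced in control replicate 3 (3.36% of the tested genes had a lower difference), while SDC3, with 6392 nt, lay near the middle (53.0%). SDC1 (3291 nt), GPC1 (3713 nt) and SDC2 (3759 nt) had similar lengths and differed in control replicate 3. The part of RNA quality in these values was not tested.

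**Figure D3:**
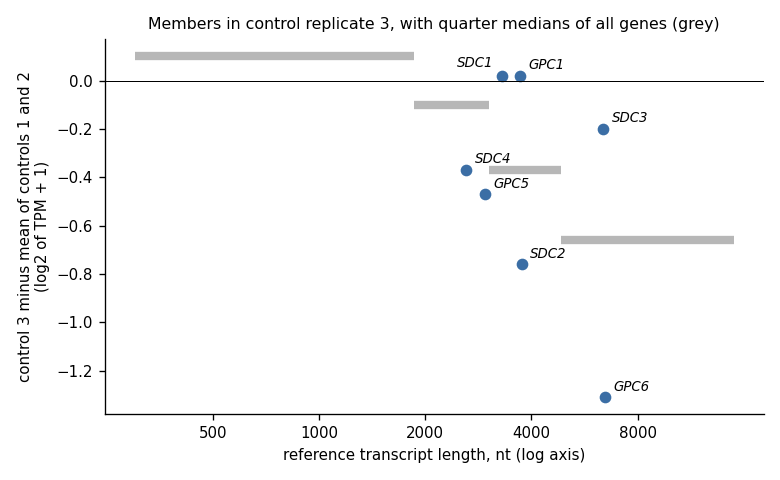
Control replicate 3 minus the mean of control replicates 1 and 2 (log2 of TPM + 1) for the 7 tested members against transcript length on a log axis; grey bars are the medians of all tested genes in 4 bins of length, and the first and last bins run beyond the ends of their bars. SDC1 and GPC1 lie at 0.02, above the bar of their length, and GPC6 lies at -1.31, below its bar.

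The make-up of the family was compared as each member's percent of the summed TPM of the 10 members in a library. The sum was 468, 487 and 352 TPM in the controls and 292, 285 and 278 TPM with rutaecarpine, so all rutaecarpine libraries were below all controls, and the mean difference was -151 TPM (-193 without control replicate 3). The 4 syndecans held 74.8% ± 1.17 (SD, n = 3) of the sum in the controls and 76.7% ± 2.23 with rutaecarpine, with overlapping ranges. SDC4 held 43.3% ± 1.27 and 44.1% ± 0.978, also overlapping. The share of SDC1 was 10.6, 10.0 and 14.3% in the controls and 7.68, 7.37 and 7.78% with rutaecarpine. That of SDC3 was 0.797, 0.814 and 0.915% in the controls and 1.99, 1.70 and 1.84% with rutaecarpine, and that of SDC2 was 20.9, 19.8 and 16.2% against 22.5, 25.1 and 22.0%. SDC1 therefore took a smaller, and SDC2 and SDC3 a larger, part of a smaller total in every rutaecarpine library than in any control. These shares add up to a whole and were not tested.

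**Figure D4:**
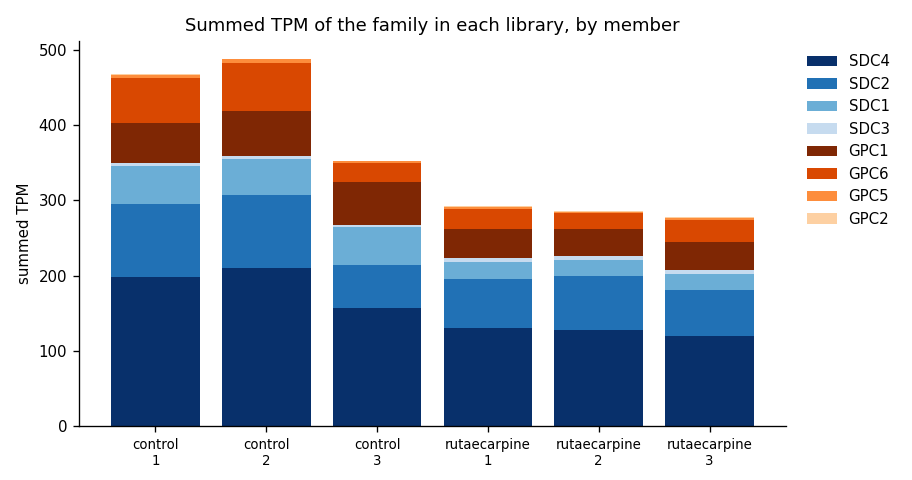
Stacked bars of the TPM of each detected member in the 6 libraries, from 0 to the family sum. The controls reach 468, 487 and 352 TPM and the rutaecarpine libraries 292, 285 and 278 TPM, with SDC4 (dark blue) the largest part throughout.

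The promoters of the 3 members that fell are shown because the study searched promoters for the response element of AhR. RefSeq promoter windows (GRCh38.p14; 250 bases before and 50 bases from the start of transcription) matched 8 of the 10 members, with no entry for SDC2 and GPC3. The first window of SDC1 and those of SDC4 and GPC1 are given 5′ to 3′ up to the base before the start, on the gene's own strand, for chr2:20225476-20225725 (minus), chr20:45348425-45348674 (minus) and chr2:240435413-240435662 (plus). Capitals mark the AhR core letters CACGC (or GCGTG, the same on the other strand) and the GC box CCGCCC (or GGGCGG), which may overlap one another.
SDC1: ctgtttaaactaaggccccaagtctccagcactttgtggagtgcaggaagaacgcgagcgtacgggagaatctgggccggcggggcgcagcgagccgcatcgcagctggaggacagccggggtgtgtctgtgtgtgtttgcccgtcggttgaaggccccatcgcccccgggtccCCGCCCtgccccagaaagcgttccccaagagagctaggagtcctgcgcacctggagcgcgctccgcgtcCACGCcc
SDC4: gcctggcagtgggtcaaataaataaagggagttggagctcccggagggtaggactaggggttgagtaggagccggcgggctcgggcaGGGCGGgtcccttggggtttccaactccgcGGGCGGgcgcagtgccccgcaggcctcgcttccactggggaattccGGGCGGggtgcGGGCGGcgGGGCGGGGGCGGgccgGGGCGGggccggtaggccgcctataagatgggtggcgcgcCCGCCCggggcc
GPC1: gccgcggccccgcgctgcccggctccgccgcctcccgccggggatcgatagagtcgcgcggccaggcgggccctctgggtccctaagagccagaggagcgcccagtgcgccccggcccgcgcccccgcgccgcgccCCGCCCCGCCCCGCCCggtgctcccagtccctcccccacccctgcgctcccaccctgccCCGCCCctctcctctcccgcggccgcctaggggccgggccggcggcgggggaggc
In the SDC1 window the core letters occurred 1 time, at bases -7 to -3 from the start, and a GC box at -76 to -71. The windows of SDC4 and GPC1 held no core letters, and had 8 and 4 GC boxes. Among the other members the core letters were found in SDC3 (1 match), GPC2 (2), GPC5 (2) and GPC4 (4), and not in GPC6 or in the second window of SDC1. They occurred in 36.5% of all 35116 windows. The longer letters used by the study, CACGCNA and TNGCGTG, were found in the window of GPC4, and in 5.5% of all windows, and the GC box in 45.0%. GPC6 had the window with the lowest GC content of the family (40.0%, against 65.0 to 84.0% in the other members and a median of 58.7% over all windows). A match of letters is a description and not a binding site, and the longer stretch upstream of the coding sequence that the study searched was not searched here.

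SDC1 was the only DEG of the family, and the genes with the pattern most like it were looked up among the 8386 tested genes with a mean of at least 10 TPM, as the smallest mean absolute difference in log2 deviation over the 6 libraries. These were CFB, which encodes complement factor B, with a difference of 0.022, and the mitotic regulators CDC20 and PLK1 with 0.029 and 0.033. CFB was at 79.7 ± 1.03 TPM in the controls and 35.6 ± 0.244 TPM with rutaecarpine. CDC20 was at 89.1 ± 5.00 and 38.5 ± 1.26 TPM, and PLK1 at 74.2 ± 1.30 and 34.0 ± 1.79 TPM.

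The genes around the family, which build, modify, release or bind these proteoglycans, were taken from 11 lists with 104 genes in all, of which 79 could be tested. In total 5 rose (EXT1, MMP7, MMP14, TIMP3 and FGF2), 6 fell (GUSB, ACTN4, SRGN, CSPG4, PTN and CD81) and 68 did not pass, and the median log2 fold change was -0.01. Over all tested genes, 4.60% passed as higher and 4.68% as lower. Without control replicate 3, 10 were higher and 19 lower, and the genes added are given list by list below. In that fit 1179 of all 14377 tested genes passed as higher and 1487 (10.3%) as lower.

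Enzymes that build the chain were largely without a change that passed. None of the 6 tested enzymes of the linkage region passed (limma; none at an unadjusted p under 0.05 either), and B3GAT3, the glucuronosyltransferase that completes the linkage, was at 46.9 ± 4.64 TPM in the controls and 46.5 ± 1.42 TPM with rutaecarpine. The xylosyltransferase XYLT1 passed as lower without control replicate 3 (log2 fold change -0.74; limma adjusted p = 0.0366). EXT1, a subunit of the heparan sulfate polymerase, rose from 50.64, 50.62 and 52.60 TPM to 83.22, 64.04 and 73.37 TPM, a log2 fold change of 0.50 (limma adjusted p = 0.0365). Its partner EXT2 was at 63.9 ± 7.22 and 53.9 ± 6.72 TPM, a change of -0.24 that did not pass (95% interval -0.55 to 0.07), and EXTL2, a related glycosyltransferase, passed as lower without control replicate 3 (-0.41; limma adjusted p = 0.0160). Of the 7 sulfotransferases and epimerase that could be tested none passed by limma (1 was lower, HS3ST3A1, and none higher at an unadjusted p under 0.05). NDST1, which starts the sulfation of the chain, was the most abundant of them at 54.8 ± 16.5 and 46.6 ± 8.01 TPM. None of the 8 genes that supply sugars and sulfate passed by limma (2 higher and 1 lower at an unadjusted p under 0.05), and SLC35B2, the transporter of the sulfate donor into the Golgi, was at 93.7 ± 8.53 and 77.4 ± 3.93 TPM. UGDH, which makes UDP-glucuronic acid, passed as higher without control replicate 3 (log2 fold change 0.38; limma adjusted p = 0.0139).

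Of 8 tested genes that edit or degrade the chains 1 fell. This was GUSB, lysosomal beta-glucuronidase, which went from 70.3 ± 0.773 to 53.5 ± 2.72 TPM (log2 fold change -0.39; limma adjusted p = 0.0313). HPSE, the heparanase that cleaves heparan sulfate, was at 4.01, 4.17 and 2.59 TPM in the controls and at 2.48, 1.95 and 2.50 TPM with rutaecarpine and did not pass (adjusted p = 0.229). HPSE passed as lower without control replicate 3 (log2 fold change -0.63; limma adjusted p = 0.0446), as did the lysosomal sulfatase IDS (-0.44; 0.0443), and the sulfamidase SGSH passed as higher (0.46; 0.0300). The extracellular sulfatases SULF1 and SULF2 were at 0.22 TPM or less.

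Of 6 tested genes for shedding of the core proteins 3 rose and none fell by limma (4 were higher and none lower at an unadjusted p under 0.05), and their median log2 fold change was 0.79. The most abundant, MMP2, was at 1878 ± 102 and 1723 ± 170.3 TPM and did not pass (log2 fold change -0.13; limma adjusted p = 0.464). ADAM10, at 97.3 ± 55.4 and 114 ± 22.9 TPM, did not pass either (0.44; limma adjusted p = 0.627). Without control replicate 3 the log2 fold changes of MMP2 and ADAM10 were -0.17 and -0.20. MMP14, a membrane-bound matrix metalloproteinase that can cleave syndecan-1, was at 321.11, 341.58 and 275.68 TPM in the controls and at 696.65, 627.52 and 677.46 TPM with rutaecarpine. All rutaecarpine libraries were at or above 627.52 TPM, and the log2 fold change was 1.09 (95% interval 0.86 to 1.33; limma adjusted p = 0.00122). The study had listed MMP14 among its migration genes from these libraries, so its direction is not independent evidence. MMP7, matrilysin, another syndecan sheddase, rose from 1.88 ± 0.284 to 5.58 ± 0.0451 TPM (log2 fold change 1.20; adjusted p = 0.00551). TIMP3, an inhibitor of these proteases and of ADAM17, rose as well, from 143 ± 22.4 to 220.3 ± 17.9 TPM (log2 fold change 0.63; adjusted p = 0.0294), so the genes that rose in this list include an inhibitor. ADAM17, a sheddase, was at 23.66, 23.74 and 10.25 TPM against 33.54, 34.05 and 39.63 TPM and did not pass (adjusted p = 0.112), and without control replicate 3 it passed as higher (log2 fold change 0.57; adjusted p = 0.00920). mRNA levels say nothing of the shed protein.

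Of 9 tested partners of the syndecan tail 1 fell. ACTN4, an actin cross-linker of the alpha-actinin family, which associates with syndecan-4, went from 271 ± 16.8 to 170.0 ± 24.5 TPM (log2 fold change -0.68; limma adjusted p = 0.0152). SDCBP, or syntenin, the scaffold that binds all syndecans, was at 332.82, 347.37 and 249.42 TPM in the controls and 380.62, 394.24 and 411.24 TPM with rutaecarpine and did not pass (adjusted p = 0.145). PRKCA, the kinase bound by syndecan-4, was at 73.4 ± 30.5 and 61.2 ± 9.75 TPM and did not pass (adjusted p = 0.791). PRKCA passed as lower without control replicate 3 (log2 fold change -0.58; limma adjusted p = 0.0238), as did the membrane linker EZR (-0.49; 0.0144).

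Other proteoglycans gave 1 lower gene in each list. Of 6 tested heparan sulfate proteoglycans outside the family, serglycin (SRGN), which is stored in granules, fell from 201 ± 14.4 to 147 ± 7.24 TPM (log2 fold change -0.44; limma adjusted p = 0.0222). The basement membrane proteoglycans agrin (AGRN) and perlecan (HSPG2) had log2 fold changes of -0.28 and -0.35 and did not pass (limma adjusted p = 0.116 and 0.109). Their groups did not overlap, as was so for 33.3% of all tested genes in either direction. AGRN passed as lower without control replicate 3 (-0.35; limma adjusted p = 0.0125), as did the co-receptor TGFBR3, betaglycan (-1.04; 0.0140). Of 4 tested chondroitin and dermatan sulfate proteoglycans, CSPG4, also called NG2, fell from 26.9 ± 4.23 to 15.6 ± 1.23 TPM (log2 fold change -0.74; adjusted p = 0.0261). Versican (VCAN) was at 46.12, 42.48 and 20.46 TPM against 78.38, 58.66 and 77.48 TPM and did not pass (adjusted p = 0.0864), and without control replicate 3 it passed as higher (log2 fold change 0.67; adjusted p = 0.0145).

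Among 12 tested heparin-binding ligands and receptors, 1 rose and 1 fell, and both were DEGs. FGF2, the fibroblast growth factor that needs heparan sulfate to bind its receptor, was at 33.52, 31.98 and 14.05 TPM in the controls and at 128.95, 117.64 and 156.13 TPM with rutaecarpine. The groups were far apart, with a log2 fold change of 2.38 (95% interval 1.64 to 3.13; limma adjusted p = 0.00533), while its co-receptor GPC1 fell. The study had named FGF2 and PTN from these libraries too, so their directions are not independent evidence. PTN, pleiotrophin, a ligand of syndecan-3, fell from 103 ± 7.55 to 50.4 ± 2.49 TPM (log2 fold change -1.01; adjusted p = 0.00130). FGFR1, an FGF receptor (FGFR2 and FGFR3 were at 0.08 TPM or less), was at 101 ± 18.7 and 76.3 ± 12.2 TPM and did not pass (adjusted p = 0.230). FGFR1 passed as lower without control replicate 3 (log2 fold change -0.55; limma adjusted p = 0.0264), as did the growth factor FGF1 (-0.88; 0.0369) and the scavenger receptor LRP1 (-0.56; 0.0114), and VEGFA, an angiogenic growth factor, passed as higher (0.62; 0.00111). Of 9 tested partners of glypicans, CD81, a tetraspanin bound by glypican-3, fell from 427 ± 39.5 to 295 ± 16.5 TPM (log2 fold change -0.53; adjusted p = 0.0143). The gene of glypican-3, GPC3, was itself listed at 0 in every library. Without control replicate 3, the coagulation inhibitor TFPI (-1.07; limma adjusted p = 0.000407) and the guidance receptor ROBO1 (-0.37; 0.0419) also passed as lower.

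The calls differed in whether they held when 1 library was left out. MMP14, MMP7, FGF2 and PTN passed when any 1 library was left out. MMP14, MMP7 and FGF2 were DEGs in all 6 of these fits, and PTN in 2 of the 6 (log2 fold changes of -1.08 to -0.98). EXT1 did not pass without control replicate 1 or 2 or rutaecarpine replicate 1 or 3, ACTN4 without control replicate 1 or 2 or rutaecarpine replicate 3, and CD81 without rutaecarpine replicate 1 or 3. GUSB, TIMP3, SRGN and CSPG4 passed without control replicate 3 and not without any other library.

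**Figure D5:**
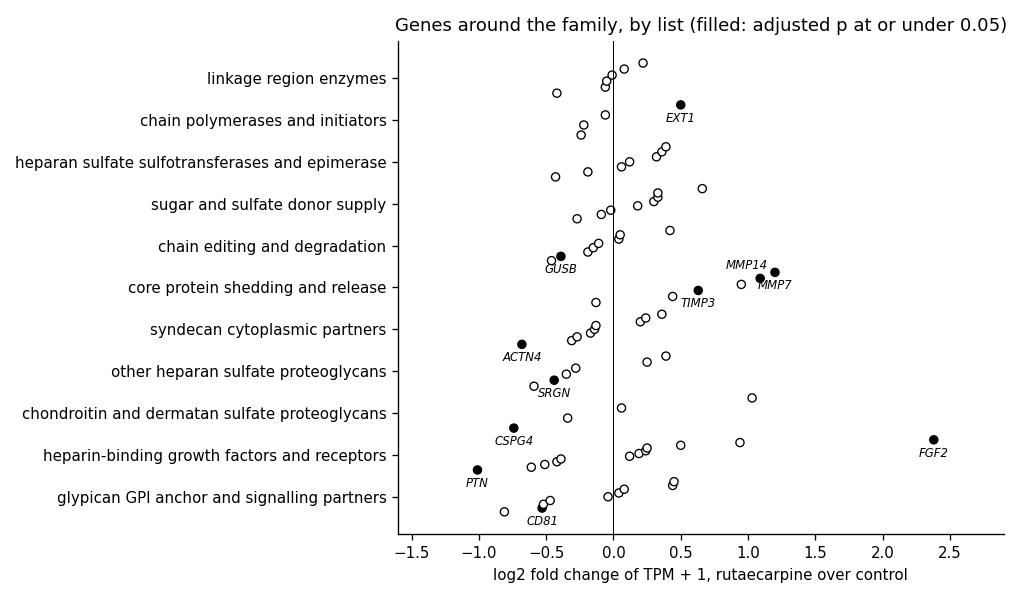
Log2 fold change of TPM + 1 for the 79 tested genes around the family, by list on the vertical axis; filled points passed at an adjusted p of at most 0.05 and carry the gene's symbol. Most genes lie within 0.5 of 0, and the 3 filled points of the shedding list are all above 0.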

How the data were processed

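RNA of 6 U87 libraries (3 control, 3 rutaecarpine) was sequenced on the Illumina NovaSeq platform. The authors quantified genes with RSEM and deposited TPM per library, on GRCh38.p13 per the submitters' processing notes, and the aligner and annotation release are not given in the sources used here. TPM were used as deposited. They are not counts, so the count tools the authors named for their own comparison (DESeq2, edgeR) were not applied. Groups came from the sample titles.

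log2(TPM + 1) was fitted with limma 3.58.1 (with a mean-variance trend) in R 4.3.3 over the 14377 of 60671 genes with at least 1 TPM in at least 3 libraries, with all 6 libraries and no covariate, and p-values were adjusted by Benjamini-Hochberg. The fit was also run on simulated data with independent noise. These held no library that stood apart as control replicate 3 does, so that run cannot judge the calls made here. Fold changes on this scale understate the change of genes at a few TPM. Of the 60671 genes, 35671 had no symbol in the table, and 35432 of these were named by identifier. Gene positions and transcript lengths came from GENCODE release 29 (GRCh38), promoter windows from RefSeq (GRCh38.p14). No coordinates were converted.

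The members and gene lists were chosen with earlier results of these data known. Named were all 10 members, every gene of the lists that passed (at most 4 per list with values), the most abundant gene of a list where none passed, CYP1B1 and markers near 0 among the checks, and the 3 genes most like a member that was a DEG. HS3ST3A1, EXT2, HPSE, the sulfatases, ADAM17, SDCBP, PRKCA, AGRN, HSPG2, VCAN, the genes passing only without control replicate 3, FGFR1, FGFR2, FGFR3, GFAP, OLIG2, NES, VIM, FN1, CD68, CYP1A1, AHRR, PECAM1, MBP and SYT1 were added after their values were seen. MMP2 and ADAM10 were added in the same way. Alternatives were another centring, quantile normalisation, no trend, other filters, a pseudocount of 0.1, a replicate block and leaving out each library.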

Additional observations from a re-analysis of the deposited data

How the results depend on the processing

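The 18 named log2 fold changes (7 members, 11 genes around them) kept their direction in all 234 refits, 13 for each. Of these, 176 also kept their side of the threshold, 56 no longer passed and 2 newly passed. SDC1, MMP14, FGF2 and PTN passed in every refit, and GPC1 and MMP7 in all but the replicate block. SDC4 lost its call in 8 of 13 refits, among them no trend (adjusted p = 0.0624) and no filter (0.0728). EXT1, GUSB and CD81 lost theirs when libraries were centred on their medians (0.158, 0.0971 and 0.103), which moved the median of all genes from 0.08 to -0.01.

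Leaving out 1 library gave 278 to 1179 higher and 261 to 1487 lower genes over all genes (662 and 673 with all libraries), 2 to 5 lower members (3), and 3 to 10 higher and 1 to 19 lower genes around the family (5 and 6). The highest of each came without control replicate 3. Quantile normalisation gave 1056 lower genes, and no filter gave 439. Genes around the family that rose numbered 3 with no trend and 3 with no filter.

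With the replicate block, 236 genes passed as higher and 192 as lower, 1 member as lower (SDC1; SDC4 at adjusted p = 0.0691, GPC1 at 0.0797), and 2 higher and 1 lower gene around the family. The deviations of same-numbered libraries from their group means correlated at r = 0.116, -0.266 and -0.215 across genes. Differently numbered libraries gave r of -0.295 to 0.387. Deviations from the mean of so few libraries cancel out within a group, so these values cannot decide whether same-numbered libraries were paired. The depth is unknown, so no detection limit can be given for GPC2, GPC3 and GPC4.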

Other observations

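Other glycosaminoglycans were looked at in lists chosen after the data were seen. Of 12 tested enzymes that build chondroitin sulfate, which syndecan-1 and syndecan-3 can also carry, 1 rose and none fell (3 were lower at an unadjusted p under 0.05 by limma). This was CSGALNACT2, which starts the chondroitin chain on the linkage shared with heparan sulfate, at 15.39, 15.82 and 7.82 TPM in the controls and 31.82, 31.66 and 35.64 TPM with rutaecarpine (log2 fold change 1.34; adjusted p = 0.0200). Of 9 tested genes of hyaluronan turnover, 2 rose and none fell (3 were lower at an unadjusted p under 0.05 by limma). HAS2, a hyaluronan synthase, was at 3.97 ± 1.53 TPM (SD, n = 3) in the controls and 13.8 ± 1.08 TPM with rutaecarpine (log2 fold change 1.62; limma adjusted p = 0.00990). CEMIP2, a cell-surface hyaluronidase, was at 3.22 ± 0.573 and 6.83 ± 1.09 TPM (log2 fold change 0.89; limma adjusted p = 0.0287). The study had listed HAS2 and CEMIP2 among its migration genes from these libraries. HAS1, the more abundant synthase, was at 89.6 ± 11.0 and 66.9 ± 4.10 TPM and did not pass (adjusted p = 0.0693). Without control replicate 3 the adjusted p of HAS1 was 0.0408, with a log2 fold change of -0.32. In the same fit 1 gene of the chondroitin list and 2 of the hyaluronan list, HAS1 among them, passed as lower. In these lists 1 and 2 genes passed as higher in that fit. Over all 14377 tested genes, 1179 passed as higher and 1487 (10.3%) as lower without control replicate 3. With all libraries, 4.60% passed as higher and 4.68% as lower.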
